A study of Homo sapiens with 2 samples.

Results

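The 36 genes described here encode proteins that make a platelet: proteins stored in its granules, receptors on its surface, parts of its skeleton and signalling, the enzymes that make thromboxane and related lipids, and a few regulators of its precursor, the megakaryocyte. They form a fixed list of gene symbols that was drawn up with earlier results of these data known, and all 36 were found among the 36601 genes of both count matrices. By role, 11 encode granule and secreted proteins, 13 receptors and other surface proteins, 6 skeleton, trafficking and signalling proteins, 3 enzymes of thromboxane and lipoxygenase metabolism and 3 regulators of transcription and RNA.

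The cells came from 2 BG-HFOs (blood-generating heart-forming organoids), named 32.7 and 33.10, at day 14 of differentiation. Both were grown from hES3 NKX2.5-eGFP, a human embryonic stem cell line in which green fluorescence reports the cardiac gene *NKX2.5*. Cell aggregates were placed in Matrigel, WNT signalling was switched on with CHIR and then off with IWP2, and BMP4, bFGF, VEGF, SCF, EPO and further cytokines that favour blood and endothelium were added. Each organoid was dissociated whole and made into 1 droplet library, in which every captured transcript carries the barcode of its cell and a unique molecular identifier (UMI). Both organoids had the same line and the same treatment, so the comparisons below are between kinds of cell within organoids, with n = 2 organoids. The labels do not say whether the organoids came from separate differentiations, and the p-values measure only the spread between them.

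Megakaryocytes are large cells that bud off platelets. They load α-granules with chemokines, adhesive proteins and clotting factors, build a ring of microtubules that shapes the platelet, and carry the receptors by which platelets sense collagen, thrombin, ADP and the von Willebrand factor of injured vessels. In the embryo they arise with red blood cells from shared progenitors, and both come from or lie beside endothelium, which itself stores some of the same proteins. *ITGA2B* encodes the platelet integrin subunit αIIb (CD41), *HBZ* the embryonic ζ-globin of red cells, *PTPRC* the leukocyte protein CD45 and *CDH5* the endothelial cadherin CD144.

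Cells were sorted in silico by the raw UMIs of these 4 genes, none of which is among the 36. A cell was positive for *ITGA2B*, *PTPRC* or *CDH5* with at least 3 UMIs and negative with at most 1, and cells with exactly 2 stayed out. For *HBZ* the cutoff was 50 UMIs in both organoids. The groups are called gates and are named by genes, not as cell types. The study also reported *ITGA2B*, to some degree, in its cluster of blood progenitor cells. The ITGA2B gate can therefore hold such cells, and their share was not tested. The ITGA2B gate, positive for *ITGA2B* alone, held 933 cells in organoid 32.7 and 2837 in organoid 33.10, with medians of 11067 and 10623 UMIs per cell. The PTPRC gate held 784 and 333 cells, the HBZ gate 848 and 1927 and the CDH5 gate 1955 and 1565. A negative gate (7443 and 7851 cells) had 0 UMIs of *ITGA2B*, *PTPRC* and *CDH5* and lay below the *HBZ* cutoff. Its median depth was 6237 and 6604 UMIs, below that of the ITGA2B gate. Shallow cells of these lineages that fell short of the cutoffs can therefore be among its cells, and their share was not tested. The negative gate thus serves as a further comparison and not as a measured background. Gates positive for 2 genes were smaller, from 25 to 214 cells. Values below are given for organoid 32.7 first and organoid 33.10 second, and a level is given in CPM, in which the UMIs of all genes in a gate are scaled to sum to 1000000 in each organoid. Because the counts come from the 3′ ends of transcripts with intronic reads included, they are not scaled by length, and levels are compared between gates and not between genes.

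The 2 libraries held 16866 and 19948 barcodes with 191152562 and 233818881 UMIs, of which 15650 and 19193 cells passed the cell filter and 12126 and 14971 fell into a gate. The libraries shared 100 barcode sequences. Megakaryocyte genes outside the 36 were high in the ITGA2B gate. *ITGB3*, the partner chain of αIIb, was at 349.7 and 342.9 CPM there against 2.03 to 22.7 CPM in the other gates positive for a single gene and the negative gate, *CAVIN2*, a protein of membrane caveolae, at 407.9 and 386.4 CPM against 3.94 to 33.6 CPM, and *MPIG6B*, an inhibitory platelet receptor, at 82.17 and 94.98 CPM against 0.179 to 3.73 CPM. The transcription factors were shared: *GATA1* was at 235.5 and 217.6 CPM there and 101.1 and 91.2 CPM in the HBZ gate, and *FLI1* at 364.2 and 440.6 CPM there and 342.9 and 394.2 CPM in the CDH5 gate. The ITGA2B gate also held RNA of other lists. Its 9 leukocyte genes summed to 1261 and 1176 CPM (7663 and 6243 CPM in the PTPRC gate), its 7 endothelial genes to 438 and 415 CPM (3056 and 2785 CPM in the CDH5 gate), its 5 cardiomyocyte genes to 1238 and 1739 CPM (6518 and 6047 CPM in the negative gate) and its 8 erythroid genes to 3439 and 3612 CPM (18380 and 16460 CPM in the HBZ gate). Cells whose profile a doublet score ranked as a mixture made up 15.9% and 19.5% of the ITGA2B gate.

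The 36 genes were concentrated in the ITGA2B gate. Their summed level was 31500 and 26720 CPM there, against 1315 and 1247 CPM in the PTPRC gate, 620.8 and 736.7 CPM in the HBZ gate, 757.0 and 843.2 CPM in the CDH5 gate and 817.4 and 1126 CPM in the negative gate. *PF4* and *PPBP* made up most of the sum in the ITGA2B gate. The mean level of 33 of the 36 was highest in the ITGA2B gate, as it was for 14.4% of the 20580 genes tested. For 31 members both organoids lay above both organoids of every other single gate and the negative gate, which held for 10.2% of all genes tested. In 30 genes the ITGA2B gate was at least 2 times, and in 18 at least 10 times, the next highest of these gates. The shares of all genes at these thresholds were not computed. The widest separations were those of *SELP* (83.0 times), *TREML1* (80.6 times), *GP9* (73.3 times) and *PF4* (67.1 times). *VWF*, *F5*, *F13A1*, *CD9* and *BIN2* were the 5 whose values in the ITGA2B gate overlapped with or lay below those of another gate.

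**Figure D1:**
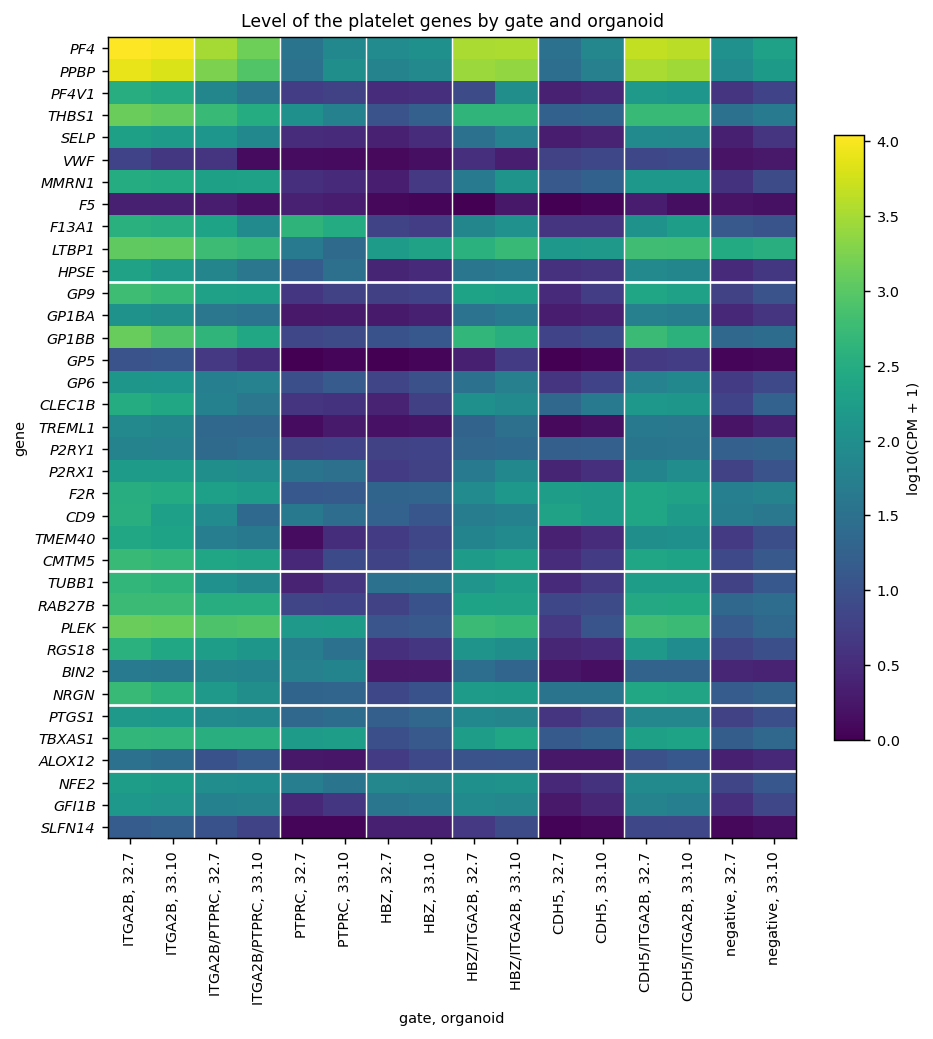
Level of each of the 36 genes (rows, by role) in each gate and organoid (columns), coloured by log10(CPM + 1). Brighter colours are higher levels: the ITGA2B columns are the brightest for most genes; *VWF* and *CD9* reach similar levels in the CDH5 columns, and *F13A1* and *BIN2* in the PTPRC columns.

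UMIs summed per gate and organoid were compared between gates with edgeR's quasi-likelihood test, with the organoids as replicates. All gates were in 1 fit, with Benjamini-Hochberg adjustment over all genes. A gene was called at an adjusted p under 0.05 and a log2 fold change of at least 1 in size. Against the HBZ gate all 36 genes were higher in the ITGA2B gate, where 13.2% of all genes were called higher and 5.79% lower. Against the PTPRC gate 33 were higher and 3 were not called, with 14.7% of all genes called higher and 11.5% lower. Against the CDH5 gate 34 were higher and 2 were not called, with 16.3% of all genes called higher and 13.4% lower. The median log2 fold change of the 36 was 5.76, 5.03 and 6.55 in these comparisons, against 0.08, 0.06 and 0.03 over all genes. The comparisons share the sums of the ITGA2B gate, so they are not independent of each other.

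**Figure D2:**
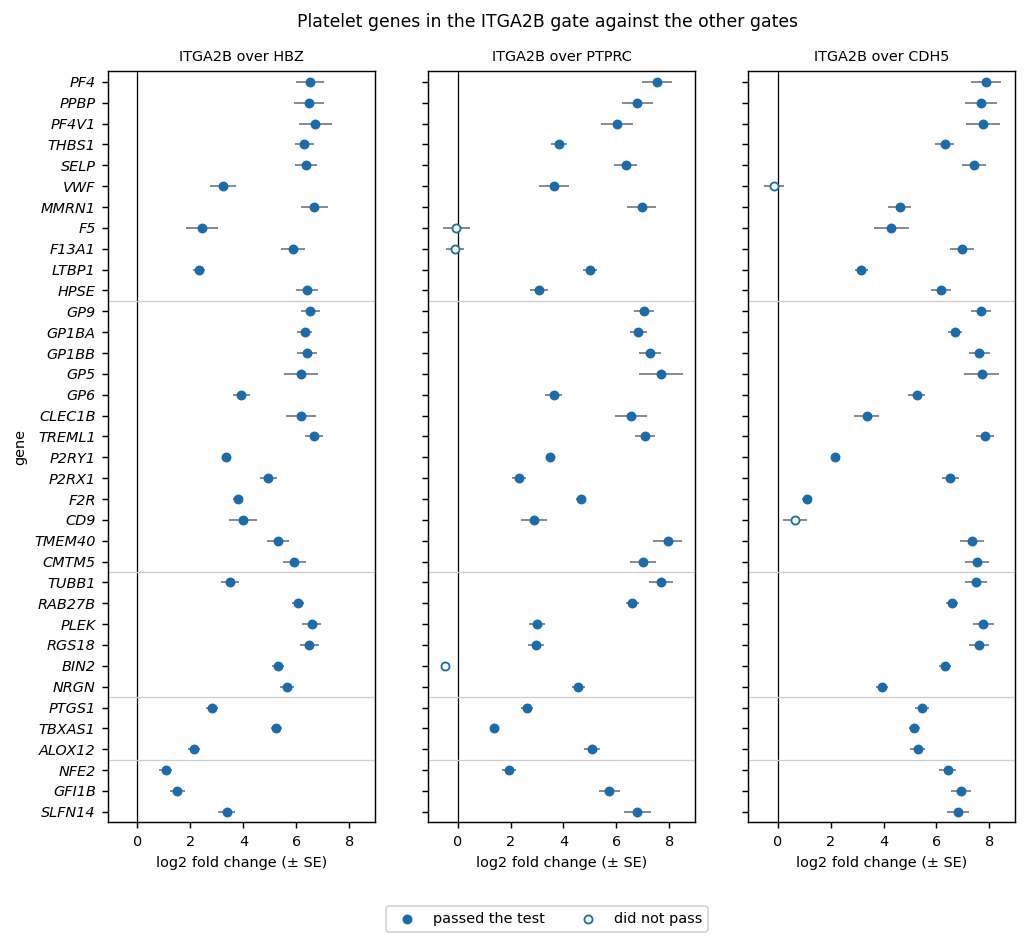
Log2 fold change of each gene in the ITGA2B gate over the HBZ, PTPRC and CDH5 gates (points, with SE as bars; n = 2 organoids; filled points passed the test). The open points are *F5*, *F13A1* and *BIN2* against the PTPRC gate and *VWF* and *CD9* against the CDH5 gate; the value of *GP5* against the PTPRC gate rests on 1 UMI in that gate.

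The genes lie on many chromosomes, with small groups side by side. Chromosomes 4 and 12 hold 5 members each, chromosomes 3 and 17 hold 4 each. *PF4*, *PPBP* and *PF4V1* lie near each other on chromosome 4, where *PF4* (73980811 to 73982027) and *PPBP* (73986439 to 73988190) of GRCh38 are 4411 bases apart. *PF4V1* lies 126327 bases from *PF4*. *F5* and *SELP* on chromosome 1 are 2260 bases apart, and *VWF* and *CD9* on chromosome 12 are 74944 bases apart. Neighbours could differ: *SELP* had the widest separation of the ITGA2B gate from the next highest gate, whereas the levels of *F5* overlapped with those of the PTPRC gate. The level of *F5* in the ITGA2B gate rested on only 17 and 49 UMIs.

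Megakaryocyte genes are known to be read by transcription factors of the GATA and ETS families, and a short motif of each family was searched, AGATAA for the former and GGAAGT for the latter, neither of which contains the other. Both were searched on both strands from 250 bases before to 50 bases after the start of each gene. RefSeq promoters on GRCh38.p14 were given for 28 of the 36 genes. AGATAA was found in 5 of 28 (17.9%), against 10.3% of all 35116 promoters of the same length, and GGAAGT in 9 of 28 (32.1%), against 22.8%. Both were found in *PPBP*, *GP6* and *PTGS1* (10.7%, against 2.16% of all promoters). In the 37 promoters of a list of other platelet genes, AGATAA was found in 5.41%, GGAAGT in 32.4% and both in 2.7%. A match is only a run of letters and is no evidence of binding. The 250 bases before the start are shown for these 3 genes, since they carry both motifs. They are also shown for *GP9*, the surface gene most concentrated in the ITGA2B gate among those with a match to GGAAGT alone. The run of *GP9* also holds GGATAA, which differs from AGATAA only in its first letter and was not counted. The runs read 5′ to 3′ in the direction of the gene, with the motifs (on either strand) in capitals.
PPBP, GRCh38.p14 chr4:73988191-73988440, minus strand: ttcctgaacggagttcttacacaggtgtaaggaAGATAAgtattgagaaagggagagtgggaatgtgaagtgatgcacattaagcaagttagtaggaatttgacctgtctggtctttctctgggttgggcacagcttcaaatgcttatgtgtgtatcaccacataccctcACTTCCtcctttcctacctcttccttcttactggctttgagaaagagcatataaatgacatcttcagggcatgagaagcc
GP6, GRCh38.p14 chr19:55038265-55038514, minus strand: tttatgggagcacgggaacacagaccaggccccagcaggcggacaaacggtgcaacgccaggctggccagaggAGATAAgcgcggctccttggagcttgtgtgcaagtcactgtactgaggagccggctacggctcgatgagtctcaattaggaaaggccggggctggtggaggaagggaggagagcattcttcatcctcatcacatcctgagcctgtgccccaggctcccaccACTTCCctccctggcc
PTGS1, GRCh38.p14 chr9:122370283-122370532, plus strand: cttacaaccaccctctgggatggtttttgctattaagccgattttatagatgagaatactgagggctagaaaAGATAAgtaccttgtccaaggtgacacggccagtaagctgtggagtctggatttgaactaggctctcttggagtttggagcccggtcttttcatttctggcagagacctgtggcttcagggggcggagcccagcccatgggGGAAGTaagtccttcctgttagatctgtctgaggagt
GP9, GRCh38.p14 chr3:129060529-129060778, plus strand: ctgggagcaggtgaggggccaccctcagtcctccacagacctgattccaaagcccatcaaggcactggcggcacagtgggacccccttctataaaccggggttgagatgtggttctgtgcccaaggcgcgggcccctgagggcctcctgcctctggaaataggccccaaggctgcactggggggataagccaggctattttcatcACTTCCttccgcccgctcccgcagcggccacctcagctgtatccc
In *PPBP* a further match to the GATA motif lies after the start, outside the run shown.

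Among the granule chemokines, *PF4* (platelet factor 4) stood at 10940 and 9751 CPM in the ITGA2B gate. It was at 35.2 and 75.8 CPM in the PTPRC gate, 89.4 and 105.7 CPM in the HBZ gate, 31.1 and 73.7 CPM in the CDH5 gate and 108.3 and 200.4 CPM in the negative gate. Both organoids of the ITGA2B gate were far above all others, of which the negative gate was the highest and the PTPRC and CDH5 gates overlapped, and against the HBZ gate the log2 fold change was 6.51 (SE 0.54, adjusted p = 6.52e-07 by edgeR's quasi-likelihood test). *PPBP*, the precursor of the platelet chemokine NAP-2, was at 8158 and 6445 CPM, against 27.8 to 155.4 CPM in the other single gates and the negative gate. *PF4V1*, a near copy of *PF4*, was at 327.9 and 276.1 CPM against 1.35 to 5.50 CPM, and reads of the pair can be assigned to the wrong copy, so its value is uncertain. The 11 granule genes summed to 22960 and 19630 CPM.

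Of the 8 other granule genes, *SELP* alone was as concentrated in the gate as the chemokines. *THBS1* (thrombospondin 1) was at 1295 and 1134 CPM and *SELP* (P-selectin, exposed on activated platelets and endothelium) at 193.1 and 171.3 CPM. *SELP* was at 1.05 and 1.45 CPM in the CDH5 gate, a log2 fold change of 7.42 (SE 0.44, adjusted p = 1.63e-08, edgeR's quasi-likelihood test) in favour of the ITGA2B gate, although endothelium stores P-selectin in the adult. *MMRN1* (multimerin 1, which binds factor V in granules) was at 318.7 and 295.9 CPM, with its next highest level in the CDH5 gate at 12.6 and 16.7 CPM. *HPSE* (heparanase) was at 207.7 and 148.4 CPM against 14.0 and 29.8 CPM in the PTPRC gate. *LTBP1*, which binds latent TGF-β, was at 1145 and 1070 CPM but also present in the negative gate at 294.8 and 340.9 CPM and in the HBZ gate at 167.5 and 210.4 CPM. Of the 11 granule genes, 11 were higher in the ITGA2B gate than in the HBZ gate, 9 than in the PTPRC gate and 10 than in the CDH5 gate.

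The members not called were *VWF*, *F13A1*, *BIN2*, *F5* and *CD9*, each against either the PTPRC or the CDH5 gate. *VWF* (von Willebrand factor, stored by both megakaryocytes and endothelium) had 5.44 and 3.56 CPM in the ITGA2B gate and 5.03 and 6.40 CPM in the CDH5 gate, so the gates overlapped (log2 fold change -0.14, SE 0.37, adjusted p = 0.781 by edgeR's quasi-likelihood test). It was at 0.358 and 0.312 CPM in the PTPRC gate and 0.276 and 0.490 CPM in the HBZ gate. *F13A1* (the A chain of clotting factor XIII, made by megakaryocytes and macrophages) had 359.9 and 331.6 CPM in the ITGA2B gate and 424.7 and 301.2 CPM in the PTPRC gate, while the HBZ and CDH5 gates stayed between 3.22 and 5.79 CPM. *BIN2*, an adaptor of membrane curvature in blood cells, had 46.1 and 41.7 CPM in the ITGA2B gate and more, 56.4 and 64.3 CPM, in the PTPRC gate (log2 fold change -0.48, SE 0.16, adjusted p = 0.028 by edgeR's quasi-likelihood test, under the size needed for a call). *F5* (clotting factor V) was scarce everywhere: 17 and 49 UMIs in the whole ITGA2B gate, and 23 and 7 in the PTPRC gate. *CD9*, a tetraspanin of many cell types, had 334.9 and 187.7 CPM in the ITGA2B gate and 215.1 and 169.6 CPM in the CDH5 gate.

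The receptor for von Willebrand factor is a complex of GPIbα, GPIbβ, GPIX and GPV, and each of its 4 genes was concentrated in the ITGA2B gate. *GP9* was at 613.1 and 491.3 CPM in the ITGA2B gate against 2.05 to 9.84 CPM in the other single gates and the negative gate. *GP1BB* was at 1275 and 811.7 CPM against 5.41 to 25.9 CPM, although transcripts that read through from its upstream neighbour *SEPTIN5* can add to it. *GP1BA* was at 114.4 and 96.7 CPM against 0.895 to 3.22 CPM. *GP5*, which encodes the remaining chain, was at 9.84 and 10.8 CPM, with 0 and 1 UMI in the PTPRC gate, 0 and 5 in the HBZ gate and 0 and 3 in the CDH5 gate. Transcripts of all 4 chains were thus detected in the ITGA2B gate. For the chains other than GPV, the difference from the CDH5 gate ran from a log2 fold change of 6.69 for *GP1BA* (SE 0.27, adjusted p = 1.01e-09, edgeR's quasi-likelihood test) to 7.69 for *GP9* (SE 0.38, adjusted p = 3.99e-09).

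The receptors for collagen, podoplanin and soluble agonists were less uniform. *GP6* (the collagen receptor GPVI) was at 137.6 and 131.1 CPM in the ITGA2B gate and 8.77 and 13.4 CPM in the PTPRC gate. *CLEC1B* (CLEC-2, the podoplanin receptor) was at 311.7 and 263.2 CPM, and at 21.0 and 44.4 CPM in the CDH5 gate. In the CDH5 gate that was above the PTPRC gate (2.98 and 2.96 CPM) and the HBZ gate (1.52 and 4.82 CPM) in both organoids. *TREML1*, a granule membrane receptor of platelets, was at 77.5 and 71.0 CPM against 0.263 to 1.23 CPM elsewhere. Of the receptors for ADP and ATP, *P2RY1* was at 62.8 and 60.5 CPM against 15.7 to 18.1 CPM in the CDH5 and negative gates, and *P2RX1* at 165.8 and 163.4 CPM against 35.4 and 29.6 CPM in the PTPRC gate. *F2R* (the thrombin receptor PAR1) had the smallest called difference from the CDH5 gate. It stood at 331.4 and 301.7 CPM against 174.9 and 168.5 CPM (log2 fold change 1.10, SE 0.16, adjusted p = 7.13e-05 by edgeR's quasi-likelihood test), and the organoids did not overlap. *TMEM40* and *CMTM5*, which encode membrane proteins, were at 264.1 and 216.3 CPM and at 531.8 and 464.8 CPM, and at most 12.5 CPM in any of the other single gates or the negative gate. All 13 surface genes were higher in the ITGA2B gate than in the HBZ and PTPRC gates, and 12 than in the CDH5 gate.

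Among the skeleton and signalling genes, *TUBB1*, the β1-tubulin of the platelet's microtubule ring, was at 471.5 and 402.4 CPM in the ITGA2B gate. It was at 32.1 and 34.9 CPM in the HBZ gate, above the PTPRC and CDH5 gates (1.55 to 3.77 CPM) and the negative gate (5.26 and 11.8 CPM), so the HBZ gate was second by its level. *RAB27B*, a small GTPase of granule transport, was at 571.9 and 567.0 CPM and at most 27.3 CPM in the other single gates and the negative gate. *PLEK* (pleckstrin, the major substrate of protein kinase C in platelets) was at 1311 and 1228 CPM, with 151.6 and 160.0 CPM in the PTPRC gate. *RGS18*, a regulator of G-protein signalling in blood cells, was at 376.9 and 266.9 CPM, with 48.7 and 32.0 CPM in the PTPRC gate. *NRGN* (neurogranin, which binds calmodulin) was at 536.5 and 395.0 CPM, with 35.2 and 35.3 CPM in the CDH5 gate. Apart from *BIN2* against the PTPRC gate, all 6 were higher in the ITGA2B gate in each of these comparisons.

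The enzymes that turn arachidonic acid into lipid mediators differed in which gate came closest to the ITGA2B gate. *PTGS1* (cyclooxygenase 1) was at 154.5 and 143.9 CPM in the ITGA2B gate, 21.9 and 25.8 CPM in the PTPRC gate and 15.7 and 20.7 CPM in the HBZ gate. *TBXAS1* (thromboxane synthase, also made by macrophages) was at 477.1 and 450.9 CPM against 170.5 and 178.1 CPM in the PTPRC gate, a log2 fold change of 1.39 (SE 0.17, adjusted p = 2.31e-05, edgeR's quasi-likelihood test), but only 8.69 and 12.4 CPM in the HBZ gate, a log2 fold change of 5.23. *ALOX12* (12-lipoxygenase) was at 30.9 and 25.6 CPM, with its next highest level in the HBZ gate at 4.21 and 6.74 CPM and 0.835 and 0.780 CPM in the PTPRC gate. The 3 enzymes were higher in the ITGA2B gate in each of the 3 comparisons.

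Of the 3 regulators, *NFE2* and *GFI1B* had the smallest log2 fold changes of the 36 between the ITGA2B and HBZ gates, and *SLFN14* did not share this. *NFE2*, a transcription factor of both megakaryocytes and red cells, was at 182.2 and 160.6 CPM in the ITGA2B gate, 73.7 and 66.9 CPM in the HBZ gate, 51.7 and 35.1 CPM in the PTPRC gate and only 1.84 and 2.87 CPM in the CDH5 gate. Its difference from the HBZ gate was a log2 fold change of 1.06 (SE 0.24, adjusted p = 0.00381 by edgeR's quasi-likelihood test), just over the size for a call, and it was not called under 5 of the alternatives tried. *GFI1B*, a repressor needed for both lineages, was at 141.4 and 125.7 CPM against 37.1 and 43.5 CPM in the HBZ gate and 1.97 and 3.43 CPM in the PTPRC gate. *SLFN14*, a ribonuclease mutated in some inherited low platelet counts, was at 14.1 and 16.4 CPM against 1.24 and 1.28 CPM in the HBZ gate, with 2 and 1 UMIs in the PTPRC gate.

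Free RNA from broken cells gives every droplet some transcripts of abundant genes, in fixed proportions to one another. Each gene was therefore also given relative to *PF4*, as its ratio to *PF4* in a gate over that in the ITGA2B gate. A value near 1 means that a gene kept the proportion it had in the ITGA2B gate, and a larger value that it was over-represented relative to *PF4*. Free RNA comes from all cells, so its proportions need not be those of the ITGA2B gate. Values above 1 can thus include free RNA, and its proportions were not measured. Since *PF4* was far lower outside the ITGA2B gate, a gene at equal levels in both gates has a value far above 3. The share of all genes at 3 or above was not computed, so the counts of members are not set against it. In the HBZ gate 22 of the other 35 members stayed below 3 in at least 1 organoid. *GP9* (0.977 and 1.01), *TREML1* (0.871 and 0.881), *PLEK* (0.984 and 0.917), *PF4V1* (0.823 and 0.894) and *PPBP* (0.953 and 1.12) kept close to the proportion of the ITGA2B gate. The 13 that were at least 3 in both organoids were led by *NFE2* (49.5 and 38.4) and *GFI1B* (32.1 and 31.9). They held *ALOX12* (16.6 and 24.3), *LTBP1* (17.9 and 18.1), *PTGS1* (12.4 and 13.3), *SLFN14* (10.8 and 7.22) and *TUBB1* (8.32 and 7.99). Also among the 13 were *F5* and *VWF*, whose ratios rested on only 3 and 5 and on 4 and 13 UMIs in the HBZ gate.

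The genes over-represented relative to *PF4* differed in part between gates. In the PTPRC gate 19 of 35 were at least 3 in both organoids, among them *BIN2* (381.0 and 198.0), *F13A1* (367.0 and 117.0), *TBXAS1* (111.0 and 50.8), *NFE2* (88.1 and 28.1), *P2RX1* (66.4 and 23.3), *RGS18* (40.2 and 15.4) and *PLEK* (35.9 and 16.8). *TUBB1* was not (1.02 and 0.997). In the CDH5 gate there were 12, led by *VWF* (325.0 and 238.0), *CD9* (226.0 and 120.0), *F2R* (186.0 and 73.9) and *P2RY1* (87.8 and 35.8), with *LTBP1* (43.6 and 18.3), *CLEC1B* (23.7 and 22.3), *NRGN* (23.1 and 11.8) and *MMRN1* (13.9 and 7.49). *SELP* was not (1.92 and 1.12). In the negative gate there were 8, which were *VWF*, *F5*, *LTBP1*, *P2RY1*, *F2R*, *CD9*, *ALOX12* and *NFE2*. The genes that led the CDH5 gate were thus among them. *VWF*, *P2RY1*, *F2R*, *CD9* and *ALOX12* were at least 3 in both organoids in each of these gates and in the HBZ gate. In the PTPRC gate the ratio of *VWF* rested on 6 and 2 UMIs and that of *ALOX12* on 14 and 5, so these are uncertain. For each gene named above for the PTPRC or the CDH5 gate, the ratio in that gate was lower in organoid 33.10. There *PF4* itself stood higher in these gates, at 75.8 and 73.7 CPM against 35.2 and 31.1 CPM in organoid 32.7. The ITGA2B gate took up 5.96% of the filtered cells in organoid 32.7 and 14.8% in organoid 33.10, and how much of these levels is free RNA was not tested.

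**Figure D3:**
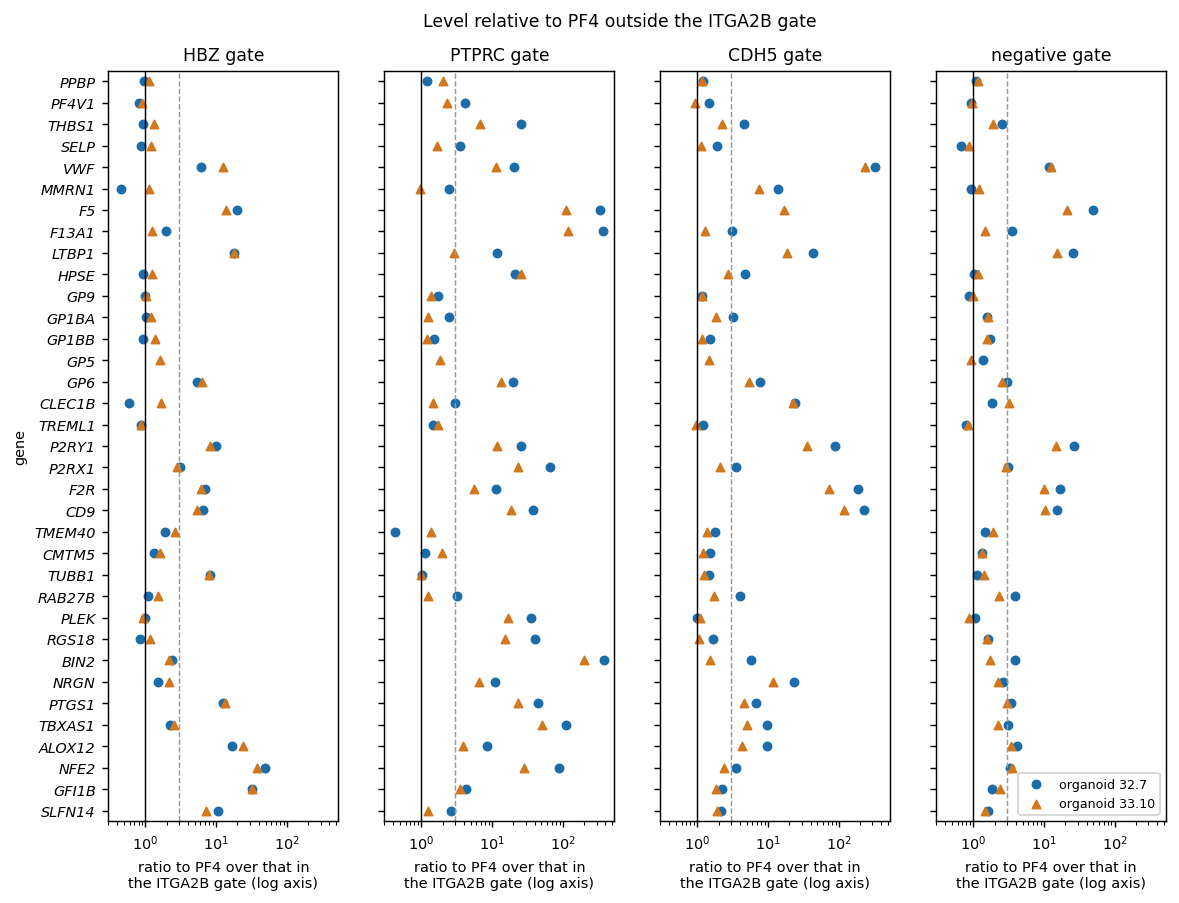
Ratio of each gene to *PF4* in the HBZ, PTPRC, CDH5 and negative gates, divided by the same ratio in the ITGA2B gate (log axis, on which ratios of 0 are left out; circles and triangles are the 2 organoids; solid line at 1, dashed line at 3). *GP9*, *GP1BB*, *PPBP* and *TREML1* stay left of 3 in all 4 gates, whereas *NFE2* and *GFI1B* in the HBZ gate, *BIN2* and *F13A1* in the PTPRC gate and *VWF* and *CD9* in the CDH5 gate lie far to the right.

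A cell of the ITGA2B gate typically had UMIs of more of the 36 genes than a cell of the other single gates or the negative gate. Whether the genes shared cells beyond what their single shares give was not tested. Each cell was thinned to 3000 UMIs so that depth does not decide detection, which left out 59 and 145 shallower cells of this gate. At that depth a cell of the ITGA2B gate had UMIs of a median of 17 and 16 of the 36 genes (10th to 90th percentile 7 to 23 in both organoids), against a median of 2 in the PTPRC gate and in the CDH5 gate and 1 in the HBZ gate and in the negative gate, in both organoids. *PF4* was found in 92.2% (exact binomial 95% interval 90.2 to 93.9) and 91.4% (90.3 to 92.4) of the thinned cells of the ITGA2B gate, and in 96.2% in both organoids before thinning. In the other single gates and the negative gate it was found in 7.69% to 16.3% of cells. *GP9* was found in 68.2% and 63.2% of the cells of the ITGA2B gate, and in 1.03% to 2.50% of the others. *TUBB1* was found in 60.8% and 61.3%, but in 7.74% (interval 5.96 to 9.85) and 10.7% (9.35 to 12.3) of the HBZ gate against 0.516% to 1.17% of the PTPRC and CDH5 gates. *NFE2* was found in 18.7% and 18.2% of the HBZ gate and in 0.878% and 1.04% of the CDH5 gate. Intervals cover counting error only.

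The share of cells in which a member was found ran from nearly all to very few. *PPBP* was found in 87.3% and 84.6% of the thinned cells of the ITGA2B gate, *GP1BB* in 79.4% and 70.4%, *PLEK* in 78.0% and 79.3%, *THBS1* in 78.0% and 76.7% and *LTBP1* in 76.1% and 77.3%. *TREML1* was found in 18.5% and 18.3%, *SLFN14* in 4.35% in both organoids, *GP5* in 3.09% and 2.86% and *VWF* in 1.14% and 0.817%. *VWF* was thus found in no larger a share of the ITGA2B gate than of the CDH5 gate, where it was in 1.65% and 1.62%. *CD9* was in 41.6% and 31.5% of the ITGA2B gate and in 45.3% and 37.4% of the CDH5 gate. *BIN2* was in 10.8% and 9.99% against 16.8% and 21.2% of the PTPRC gate.

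Inside the ITGA2B gate the members varied with the strength of *ITGA2B*. The cells of each organoid were ranked by the share of their UMIs that *ITGA2B* took and cut into 3 equal parts. All 36 genes were higher in the highest than in the lowest tertile in both organoids, as were 19.5% of all genes tested, and the median ratio was 3.63 and 3.35. From the lowest to the highest tertile *PF4* went from 4296 through 12690 to 21050 CPM in organoid 32.7 and from 4470 through 11160 to 18640 CPM in organoid 33.10. *TUBB1* went from 209.4 through 533.4 to 879.5 CPM and from 205.0 through 447.6 to 744.6 CPM. The smallest ratios among genes with enough UMIs were those of *NFE2* (2.09 and 2.19), *F2R* (2.31 and 2.11), *P2RY1* (2.37 and 2.04) and *GFI1B* (2.48 and 2.34). *F5* had too few UMIs for a ratio in organoid 32.7 and a ratio of 1.35 in organoid 33.10.

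The tertiles differed in other ways, which bear on these values. Cells of the lowest tertile were deeper, with medians of 15430 and 15288 UMIs against 7812 and 7601 in the highest. The gate asks for at least 3 UMIs of *ITGA2B*, so a shallow cell cannot have a low share of it. How much of the gap in depth comes from this rule was not tested. A similar gap was found between the quartiles of the *PF4* share described below, although the gate sets no minimum for *PF4*. Predicted doublets made up 34.7% and 39.3% of the lowest tertile and 2.89% and 2.96% of the highest, cycling cells 27.3% and 25.5% against 5.79% and 4.55%, the 5 cardiomyocyte genes summed to 2086 and 2896 CPM against 413 and 442 CPM, and the 8 erythroid genes to 2125 and 2505 CPM against 4858 and 5169 CPM. As alternatives added after these values were seen, the tertiles were taken again without predicted doublets, in non-cycling cells only and within quartiles of depth. In each, 35 of 36 were higher in the highest tertile in both organoids (the exception was *F5*). The median ratio was 2.90 and 2.65 without doublets, 2.42 and 2.55 in non-cycling cells and 3.65 and 3.08 within quartiles of depth. The shares of all genes in these alternatives were not computed. Within quartiles of depth the tertiles still differed in predicted doublets (30.8% and 31.2% in the lowest, 3.88% and 4.87% in the highest). The 5 cardiomyocyte genes there summed to 2286 and 3009 CPM against 317.6 and 606.7 CPM.

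The members did not vary by the same amount. The same cells were ranked by the share of *PF4* and cut into 4 equal parts, and *PF4* itself is not described along them. *PF4* had a median of 98 and 88 UMIs per cell in this gate and 0 UMIs in 3.75% and 3.81% of the cells. All other 35 genes were higher in the highest than in the lowest quartile in both organoids, as were 16.4% of all genes tested, with a median ratio of 4.89 and 4.59. The steepest were the fellow chemokines *PPBP* (17.2 and 19.0 times) and *PF4V1* (18.6 and 16.2 times, uncertain because reads of the near copies can be assigned to each other), then *TREML1* (10.7 and 12.1 times), *CLEC1B* (9.68 and 9.46 times), *NRGN* (9.07 and 9.27 times) and *HPSE* (8.10 and 10.4 times). *TUBB1* was 6.17 and 6.92 times higher. Among genes with enough UMIs, the shallowest were *PTGS1* (1.94 and 2.11 times), *BIN2* (1.99 and 2.11 times), *ALOX12* (1.72 and 2.76 times) and *P2RY1* (2.37 and 2.32 times). Next came *F2R* (2.50 and 2.57 times), *TBXAS1* (2.432 and 2.755 times), *P2RX1* (2.804 and 2.559 times) and *NFE2* (2.56 and 2.82 times). From the lowest to the highest quartile, median depth went from 14065.5 and 13580.5 to 8116 and 8047 UMIs per cell, predicted doublets from 22.6% and 28.3% to 1.29% and 3.1%, cycling cells from 25.6% and 27.6% to 2.15% and 1.97%, the 5 cardiomyocyte genes from 1789 and 2698 to 265.1 and 220.9 CPM and the 8 erythroid genes from 1816 and 1959 to 6989 and 6930 CPM. In the added alternatives 34 of 35 were higher without predicted doublets (median ratio 4.38 and 3.62) and 33 of 35 in non-cycling cells (3.31 and 3.35). Within quartiles of depth 35 of 35 were (4.34 and 4.14). The genes that were not higher were *F5* and, in non-cycling cells, *ALOX12*. The shares of all genes in these alternatives were not computed. Within quartiles of depth, predicted doublets still made up 19.9% and 22.6% of the lowest quartile and 2.16% and 7.34% of the highest. In non-cycling cells the ratios of *PPBP* (9.98 and 10.8), *CLEC1B* (5.25 and 4.86), *HPSE* (4.45 and 6.20) and *TUBB1* (3.31 and 3.93) were over 1.5 times smaller than in all cells. These are descriptions of cells within 2 organoids, with no test.

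**Figure D4:**
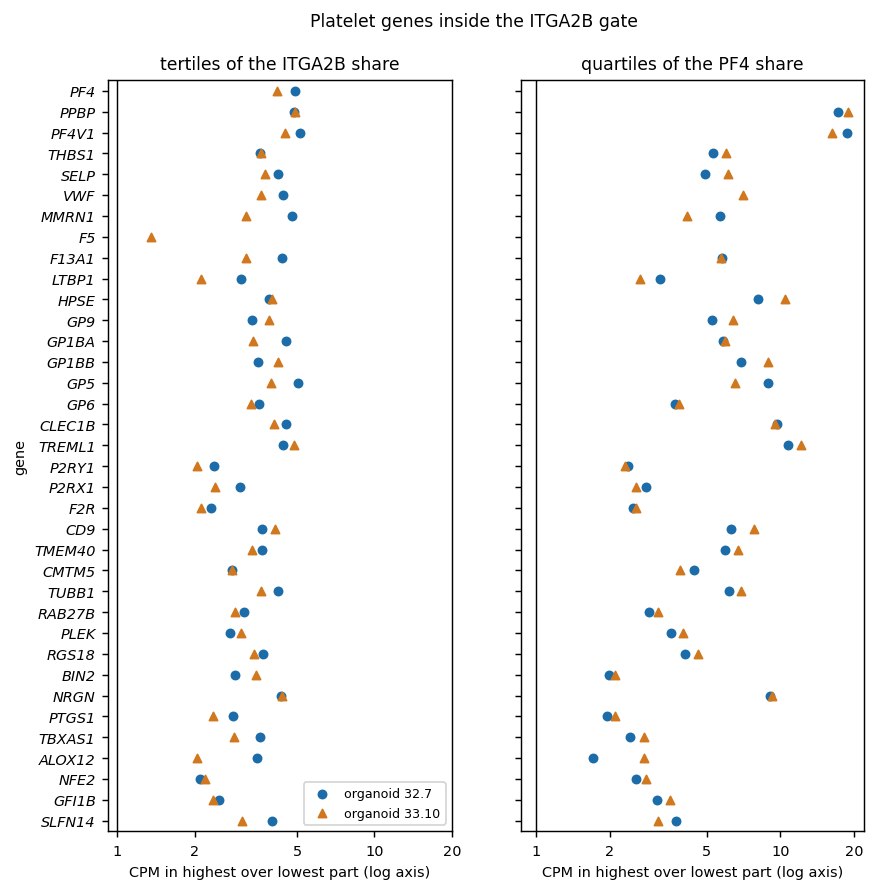
Level (CPM) of each gene in the highest over the lowest tertile of the *ITGA2B* share (left) and quartile of the *PF4* share (right) within the ITGA2B gate, on log axes, with 1 point per organoid; ratios with few UMIs are left out. All points lie right of 1, and *PPBP* and *PF4V1* lie farthest right along the *PF4* quartiles.

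Cycling cells of the ITGA2B gate held less of most members. A cell counted as cycling with at least 3 UMIs of *MKI67* and *TOP2A* in sum (159 and 424 cells) and as non-cycling with 0 (692 and 2153 cells). The 36 genes summed to 15590 and 11960 CPM in cycling and 41590 and 34620 CPM in non-cycling cells. *PF4* alone made up 5103 and 3986 CPM of the former and 14560 and 12830 CPM of the latter. In edgeR's quasi-likelihood test, with these parts in place of the gate, 23 of the 36 were lower in cycling cells and 13 were not called, with 5.76% of all genes called lower and 4.85% higher, and the median log2 fold change was -1.26 against 0.03 over all genes. *PPBP* was at 2442 and 1896 CPM in cycling and 11760 and 8863 CPM in non-cycling cells (log2 fold change -2.43, SE 0.48, adjusted p = 0.00216 by edgeR's quasi-likelihood test). *F13A1* was at 108.8 and 108.6 CPM against 504.1 and 447.3 CPM, *TMEM40* at 91.4 and 76.5 CPM against 376.1 and 292.0 CPM and *TUBB1* at 155.5 and 151.6 CPM against 665.3 and 538.6 CPM, with organoids that did not overlap. By role 7 of 11 granule genes, 9 of 13 surface genes, 3 of 6 skeleton and signalling genes, 2 of 3 enzymes and 2 of 3 regulators were lower.

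Among the genes not called, *PLEK* was at 1162 and 910.3 CPM in cycling and 1430 and 1395 CPM in non-cycling cells, *RAB27B* at 469.4 and 408.6 CPM against 645.9 and 663.5 CPM and *BIN2* at 36.4 and 40.0 CPM against 49.4 and 44.2 CPM. *GP1BB* was at 997.9 and 530.7 CPM against 1491 and 962.1 CPM and *CMTM5* at 432.5 and 315.0 CPM against 608.1 and 545.6 CPM. Some genes not called had an adjusted p under 0.05 in edgeR's quasi-likelihood test and missed only the size for a call. They were *RAB27B*, *TBXAS1*, *F2R* and *GFI1B*, with log2 fold changes of -0.749, -0.915, -0.695 and -0.973. Cycling cells were deeper (medians of 22986 and 22115 UMIs against 9454 and 9176), held more predicted doublets (22.0% and 34.2% against 13.7% and 14.9%) and had less of *ITGB3* (248.1 and 210.9 CPM against 413.1 and 412.1 CPM) and of the 8 erythroid genes (1355 and 1848 CPM against 4813 and 4543 CPM), and their part in the difference was not tested. After thinning to 3000 UMIs, cycling cells still had a median of 14 and 12 of the 36 genes and non-cycling cells 18 and 17. Without the cycling cells of organoid 33.10 only 12 of the 36 were called lower.

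Cells positive for both *ITGA2B* and *PTPRC* (56 and 100 cells) held less of most members than cells positive for *ITGA2B* alone. In edgeR's quasi-likelihood test 24 of the 36 were lower and 12 were not called, with 4.36% of all genes called lower and 3.68% higher, and the median log2 fold change was -1.31 against -0.07 over all genes. *PF4* was at 3095 and 1403 CPM against 10940 and 9751 CPM in the ITGA2B gate (log2 fold change -2.27, SE 0.45, adjusted p = 0.00386 by edgeR's quasi-likelihood test). *CLEC1B* was at 57.7 and 38.9 CPM, *TUBB1* at 108.7 and 78.7 CPM and *NRGN* at 144.7 and 96.6 CPM, each below both organoids of the ITGA2B gate. *PLEK* (823.6 and 880.5 CPM), *TBXAS1* (355.4 and 339.3 CPM), *MMRN1* (197.8 and 201.7 CPM) and *SELP* (133.4 and 74.7 CPM) were not called. *F2R*, *RAB27B*, *PTGS1*, *NFE2* and *P2RX1* missed only the size for a call. Their log2 fold changes were -0.878, -0.875, -0.976, -0.962 and -0.857, each with an adjusted p under 0.05 in edgeR's quasi-likelihood test. *BIN2* alone had a positive estimate, at 67.5 and 64.4 CPM (log2 fold change 0.51, SE 0.17, adjusted p = 0.0579 by edgeR's quasi-likelihood test). The double gate had medians of 32996 and 29668 UMIs per cell, predicted doublets made up 42.9% and 31.0% of it, and the 9 leukocyte genes summed to 3192 and 1962 CPM, between the ITGA2B and PTPRC gates. With predicted doublets removed (32 and 69 cells left), *SLFN14* alone of the 24 lower members lost its call. The part of depth and of leukocyte RNA in the difference was not tested. Without the double gate of organoid 33.10 only 14 of the 36 were called lower.

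**Figure D5:**
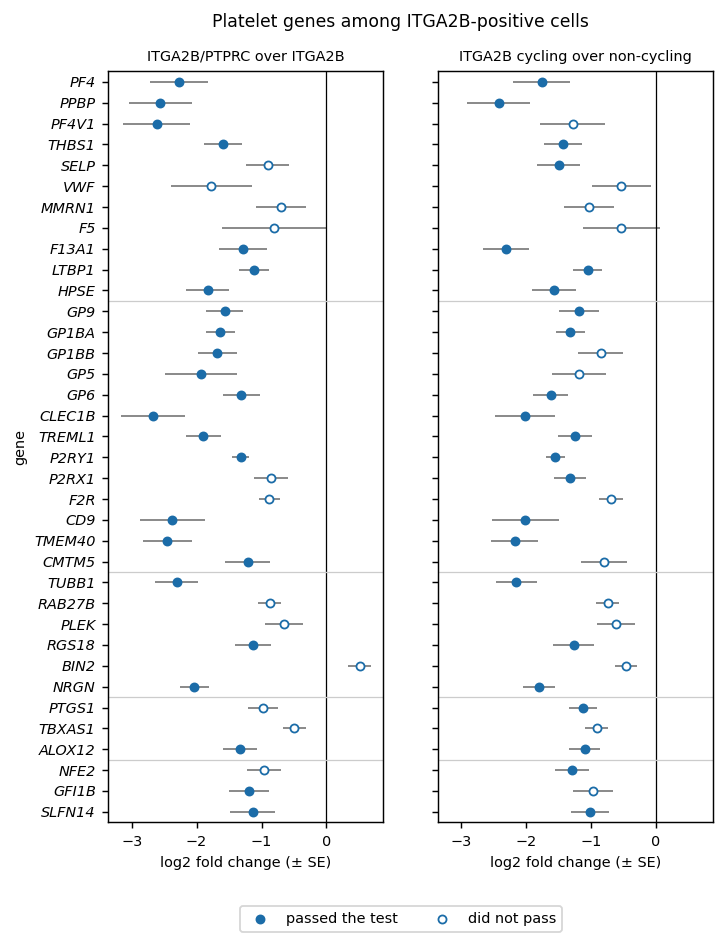
Log2 fold change (points, with SE as bars; n = 2 organoids; filled points passed the test) of each gene in the ITGA2B/PTPRC gate over the ITGA2B gate (left) and in cycling over non-cycling cells of the ITGA2B gate (right). All points but that of *BIN2* on the left lie below 0, with 24 filled on the left and 23 on the right.

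The endothelial gate with *ITGA2B* (CDH5/ITGA2B, 82 and 144 cells) held 35 of the 36 members at levels between the ITGA2B and CDH5 gates in both organoids, and *VWF* above both. The share of all genes that lay between these gates was not computed. Over the CDH5 gate 32 of the 36 were higher and 4 were not called (*VWF*, *F5*, *F2R* and *CD9*), with 6.4% of all genes called higher and 1.75% lower, and the median log2 fold change was 5.30 against -0.07 over all genes. *PF4* was at 4637 and 4123 CPM, *GP9* at 239.1 and 206.6 CPM, *TUBB1* at 184.8 and 182.5 CPM and *GP6* at 61.7 and 76.2 CPM. The genes that the CDH5 gate shared stood at *VWF* 6.38 and 7.06 CPM, *F2R* 238.7 and 209.0 CPM and *CD9* 246.9 and 170.1 CPM. Predicted doublets made up 70.7% and 87.5% of this gate, against 12.9% and 12.4% of the CDH5 gate, its medians were 30349 and 28089 UMIs per cell, and the 7 endothelial genes summed to 1746 and 1491 CPM. Single cells with both genes and droplets with a *CDH5*-positive cell and an *ITGA2B*-positive cell cannot be told apart here.

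The gate positive for *HBZ* and *ITGA2B* (25 and 214 cells) was described without a comparison of its own. *PF4* was at 3373 and 3426 CPM, *TUBB1* at 128.6 and 175.3 CPM, *NFE2* at 106.5 and 112.0 CPM and *GFI1B* at 82.1 and 73.5 CPM, all between the ITGA2B and HBZ gates in both organoids. Predicted doublets made up 28.0% and 51.9% of it.

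A list of 51 other genes of platelets and their precursors was compared in the same way. Of these, 41 were higher in the ITGA2B gate than in the HBZ gate and 10 were not called, with 13.2% of all genes called higher. Against the PTPRC gate 38 were higher and 5 lower (*FCER1G*, *PLCG2*, *SRGN*, *SYK* and *VAMP8*, genes of signalling and secretion that leukocytes use too). Of all genes, 14.7% were called higher and 11.5% lower there. Against the CDH5 gate 39 were higher and 5 lower (*ESAM*, *ITGA2*, *ITGB1*, *JAM3* and *PDGFB*, of which the first 4 encode adhesion proteins of endothelium and other cells). The shares of all genes were 16.3% higher and 13.4% lower. The median log2 fold changes were 3.02, 2.38 and 2.39. In cycling cells 22 were lower and 29 were not called, with 5.76% of all genes called lower. In the ITGA2B/PTPRC gate 25 were lower than in the ITGA2B gate and 24 were not called. *PLCG2* and *VAMP8* were higher, with log2 fold changes of 1.47 and 1.03. Of all genes, 4.36% were called lower and 3.68% higher in this comparison. In the CDH5/ITGA2B gate 32 were higher than in the CDH5 gate, 17 were not called and *ITGA2* and *JAM3* were lower. The shares of all genes were 6.4% higher and 1.75% lower. Counts differ between the lists in size and selection, and the difference between the lists was not tested.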

How the data were processed

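Droplet 3′ single-cell RNA sequencing of 2 BG-HFOs was used. The deposited matrices hold UMI counts of each gene in each barcode, which the authors produced by running Cell Ranger against GRCh38 with intronic reads included. The values are whole and not normalized, and come from before the study's removal of free RNA. Each library was kept apart. No other column of per-sample values was present (0).

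The 36 genes, their role groups, the marker lists and the motifs were chosen with earlier results of these data known; every member is named or counted. Cells with 50 to 11000 genes, under 30% mitochondrial UMIs and at least 1000 UMIs were kept. The *HBZ* cutoff was the larger of 50 UMIs and 5 times the 90th percentile in *CDH5*-positive cells (2 and 4 UMIs). UMIs were summed per gate and organoid and tested with edgeR 4.0.16 in R 4.3.3 (quasi-likelihood, TMM, genes filtered by expression, Benjamini-Hochberg), with all 8 gates in 1 fit of 20580 genes and cycling and non-cycling cells in another of 19418 genes. All 36 members passed the filter on low counts. The standard error is the size of the log2 fold change divided by the square root of F. The study's own test, which treats cells as replicates, was not used. The test was checked on simulated counts, drawn once per comparison without pairing of organoids. At each size of change 100 genes were changed, fewer than were called in the data. The shares that follow need not hold for the data. In the comparisons of the ITGA2B gate with the HBZ, PTPRC and CDH5 gates, unchanged genes made up more of the calls than the nominal share. They were 13.4%, 10.9% and 6.25% of the calls. Of 100 genes simulated with a log2 fold change of 1 in size, 51 to 66 passed at the adjusted p across all comparisons. A gene that was not called can therefore still differ. A gene of the megakaryocyte marker list is not reported here, and the others are given singly.

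Shares of cells used 3000 UMIs per cell (2000 and 5000 as alternatives; Python 3.11.15, numpy 2.4.6). Doublets were kept. Scrublet, run in scanpy 1.11.5, marked 0 cells of organoid 32.7 at its own threshold, so that it had not worked there, and 3818 (19.1%) of organoid 33.10, so predicted doublets are the 2276 and 3183 top-ranked cells at an assumed 0.8% per 1000 barcodes. Both gates of a comparison come from the same organoids, which pairs their sums, and organoid as a block was an alternative (DESeq2 1.42.0 another). The ITGA2B gate held 13411367 and 39060577 UMIs in all. Gene positions are those of the annotation on GRCh38.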

Additional observations from a re-analysis of the deposited data

How the results depend on the processing

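No log2 fold change of a member called in the tested comparisons reversed its direction under any alternative run. The directions of members that were not called were not followed across the alternatives. Inside the ITGA2B gate, under alternatives chosen after seeing the data, the ratio of *F5* (too few UMIs for a firm value) fell below 1 along the *ITGA2B* tertiles without predicted doublets (0.831) and in non-cycling cells (0.946) of organoid 33.10 and within quartiles of depth in organoid 32.7 (0.842), and along the *PF4* quartiles without predicted doublets in organoid 32.7 (0.973) and in non-cycling cells of organoid 33.10 (0.736), as did that of *ALOX12* in non-cycling cells of organoid 32.7 (0.713). The median ratios moved to 2.90 and 2.65 without doublets, 2.42 and 2.55 in non-cycling cells and, in organoid 33.10, 3.08 within quartiles of depth for the tertiles, and to 4.38 and 3.62, 3.31 and 3.35, and 4.34 and 4.14 for the quartiles. With organoid as a replicate block, which uses the pairing of gates within an organoid, the members called were 36 over the HBZ gate, 33 over the PTPRC gate, 34 over the CDH5 gate, 24 in the ITGA2B/PTPRC gate, 33 in the CDH5/ITGA2B gate and 26 in cycling cells, and the block moved no count by over 1.5 times. In the same order, 4109, 5614, 6394, 1883, 1920 and 2343 of all genes were called with the block. Leaving out each organoid of each gate in turn, with the lone sum assumed to vary like the other gates, gave 34 to 36, 33 to 33, 33 to 34, 14 to 23, 31 to 33 and 12 to 27 members called, and 3423 to 3631, 4655 to 5218, 5480 to 5757, 1142 to 1246, 1036 to 1380 and 1658 to 1849 genes called of all, against 3907, 5385, 6122, 1655, 1679 and 2060 with both organoids. The lowest values of the last 3 comparisons came from leaving out organoid 33.10 in the ITGA2B/PTPRC, CDH5/ITGA2B and cycling sums (14 members, 1036 genes and 12 members). Under every alternative run, 34 of 36 members kept their call over the HBZ gate (*NFE2* and *F5* did not), 33 of 33 over the PTPRC gate, 33 of 34 over the CDH5 gate (*F2R* did not), 31 of 32 in the CDH5/ITGA2B gate (*CLEC1B* did not), 13 of 24 in the ITGA2B/PTPRC gate and 11 of 23 in cycling cells. The cause of these losses was not tested. Removing predicted doublets left under 20 cells in a sum of the CDH5/ITGA2B gate, so that comparison was not run, nor was the ITGA2B/PTPRC gate with any *PTPRC* allowed in the ITGA2B gate. With 2 organoids of 1 line, members with few UMIs (*F5*, *GP5*, *VWF*, *SLFN14*) carry the least certain values.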
